A study of Mus musculus with 16 samples.

Results

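The 10 genes described here are the established identity and complement genes of microglia, the resident macrophages of the brain: *C1qa*, *C1qb*, *C1qc*, *C3*, *Cx3cr1*, *P2ry12*, *Tmem119*, *Trem2*, *Tyrobp* and *Csf1r*. They were chosen by symbol and are 10 of the 28683 gene symbols in the count tables, and each had at least 1 UMI in each of the 16 libraries. They were measured by Drop-seq, a droplet method that marks the transcripts of each cell with that cell's barcode and counts each by its unique molecular identifier (UMI). The cells came from the hypothalamus and preoptic area (hypothalamus-POA) of 16 mice labelled female, 1 library per mouse, on a mixed CD-1;129P2 background and 8 to 10 weeks old when injections began.

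Wild-type mice received oil (n = 3) or tamoxifen (n = 5), and *Esr1* conditional knockout (*Esr1* cKO) mice received oil (n = 4) or tamoxifen (n = 4). Tamoxifen, a modulator of estrogen receptors, was injected under the skin daily at 0.1 mg/kg in 28 injections, and the oil of the control mice was corn oil with ethanol. The *Esr1* cKO mice carried a floxed *Esr1* allele, which encodes estrogen receptor alpha, and a *Nkx2-1*-Cre transgene, and the wild-type mice were their littermates without Cre. The sources used here do not say whether those littermates carried the floxed allele. The *Nkx2-1* driver acts in a neural lineage of the ventral forebrain, whereas microglia descend from yolk sac progenitors, so the deletion was not aimed at microglia.

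Microglia survey the brain with motile processes, take up debris and synapses, and respond to damage. *Cx3cr1* encodes their receptor for the neuronal chemokine fractalkine, *P2ry12* an ADP receptor that guides the processes, and *Csf1r* the receptor for CSF1 and IL-34 on which their survival depends. TREM2 is a lipid-sensing receptor that signals through the adaptor TYROBP, and *Tmem119* encodes a membrane protein used to tell microglia from other macrophages. *C1qa*, *C1qb* and *C1qc* encode the chains of C1q, which starts the classical complement pathway, and *C3* encodes the central component on which the complement pathways converge.

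In GENCODE vM21 (GRCm38) the C1q genes lie side by side on the minus strand of chromosome 4, *C1qb* at chr4:136880129-136886187, *C1qc* at chr4:136889804-136893065 and *C1qa* at chr4:136895917-136898803. The gaps between neighbours are 3616 and 2851 bp, and no annotated gene lies in them. Across the 12 named cell types *C1qa* correlated most with *C1qc* (r = 0.998), *Fcgr3* (r = 0.997), *C1qb* (r = 0.995), *Csf1r* (r = 0.991) and *Spi1* (r = 0.989), by Pearson's r of the mean log2(CPM + 1) among 14924 genes with at least 200 UMIs. The 12 points share libraries and depth, so r is given as a description. *Spi1* encodes PU.1, a transcription factor of the myeloid lineage, and its core motif GAGGAA was therefore searched on both strands of promoter windows. These were the 250 bases before the RefSeq start (RefSeq, GRCm38.p6), taken for 6 of the 10 genes. The windows of *C1qa*, *Tmem119*, *Tyrobp* and *Csf1r* were not searched. The core was in 3 of the 6 windows, those of *C1qb*, *C1qc* and *Trem2*, and in 23.3% of 32851 promoters of the same length. The longer motif GAGGAAGT, which contains the core, was in the *C1qc* window and in 2.44% of all promoters. A match of letters is not a binding site, and no binding was measured. The windows of *C1qb* and *Trem2*, which hold the core nearest to the start (in capitals, 30 and 40 bases before it), and of *C3*, which holds none, are shown 5′ to 3′ on the strand of the gene. They lie at chr4:136886201-136886450 (minus strand), chr17:48346151-48346400 (plus strand) and chr17:57228137-57228386 (minus strand).
*C1qb*: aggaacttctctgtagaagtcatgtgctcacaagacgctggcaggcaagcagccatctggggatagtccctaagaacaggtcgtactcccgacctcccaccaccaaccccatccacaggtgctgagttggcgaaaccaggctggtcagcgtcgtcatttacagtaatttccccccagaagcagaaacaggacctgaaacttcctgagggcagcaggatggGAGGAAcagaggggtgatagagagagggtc
*Trem2*: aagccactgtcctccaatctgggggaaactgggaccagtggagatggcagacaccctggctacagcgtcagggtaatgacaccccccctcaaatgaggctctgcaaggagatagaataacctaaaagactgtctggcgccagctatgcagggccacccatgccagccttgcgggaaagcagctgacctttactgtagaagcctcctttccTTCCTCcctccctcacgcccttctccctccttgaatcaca
*C3*: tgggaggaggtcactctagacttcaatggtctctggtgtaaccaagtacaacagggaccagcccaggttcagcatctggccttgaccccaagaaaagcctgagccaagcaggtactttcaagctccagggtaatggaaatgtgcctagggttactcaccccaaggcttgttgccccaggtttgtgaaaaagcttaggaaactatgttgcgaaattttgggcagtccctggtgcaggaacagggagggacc

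Barcodes with over 200 genes, under 4000 genes and less than 15% mitochondrial UMIs were kept as cells, 55675 in all, and clustered with the 10 genes left out of the variable genes. Clusters were named from fixed marker lists and are microglia-like, macrophage-like and so on, and the short names are used from here. Of 12 microglial markers, which include none of the 10 genes, 11 were highest in microglia, and *Fcrls* was higher in macrophages (560 against 243 CPM, counts scaled to 1e+06 UMIs). All 10 macrophage markers, such as *Mrc1* (3659 against 5.39 CPM in microglia) and *Pf4* (3246 against 2.69 CPM), were highest in macrophages. The libraries held 2634253 to 8038158 UMIs, the kept cells of a library had a median of 563 to 819 UMIs, and microglia had a median of 600, so a single cell carried few UMIs of any gene and mice were compared on sums over cells. *Esr1* in all kept cells was 10.1 to 90.8 CPM, and the ranges of the wild-type and the *Esr1* cKO libraries overlapped under both treatments. Under oil this overlap rested on wild-type replicate 3 (16.36 CPM), since the others were at 90.83 and 41.72 CPM. The *Esr1* cKO oil libraries were at 33.16, 38.15, 36.25 and 34.77 CPM. In the paper, staining for estrogen receptor alpha was lost in several areas of the *Esr1* cKO hypothalamus-POA, while *Esr1* transcripts were not significantly lower. Replicate 3 of the wild-type mice given oil and replicate 3 of the *Esr1* cKO mice given tamoxifen stood apart from the other 14 libraries: their first principal component scores were 109 and 107 against −39.1 to −3.70, and 230 of 16344 gene symbols with at least 100 UMIs in the other libraries were at 0 in both, none of them among the 10 genes. Between 303 and 359 cell barcodes were shared by each pair among wild-type tamoxifen replicates 4 and 5, *Esr1* cKO oil replicate 4 and *Esr1* cKO tamoxifen replicate 4, against at most 42 in any other pair, and 79 microglia had a barcode found in another library. Fold changes of the 10 genes in microglia and shares of microglia that rest on the pair that stood apart are given with and without it. For other genes only the fit on all libraries is given.

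Microglia numbered 4213 of the 55675 kept cells, 104 to 425 per library. They held 73.8% (*Tyrobp*) to 89.1% (*P2ry12*) of all UMIs of each gene other than *C3*. In microglia *C1qa* was at 2292 ± 441 CPM (SD, n = 16), *C1qb* at 3950 ± 682 and *C1qc* at 3014 ± 433. These values are UMIs from transcript 3′ ends that were not divided by length, so levels are compared between cell types for 1 gene and not between genes. The receptors *Cx3cr1*, *P2ry12* and *Csf1r* were at 3082 ± 359, 2198 ± 504 and 2316 ± 375 CPM. *Trem2* was at 1157 ± 219, its adaptor *Tyrobp* at 1461 ± 271 and *Tmem119* at 745 ± 167 CPM. *C3* was the exception: microglia held 7 UMIs of it in all, 11 of the 16 libraries had none, and the mean was 2.48 CPM. In the barcodes with too few genes to count as cells, which stand for free RNA, *C3* was at 2.01 CPM and *C1qa* at 82.3 CPM. Cells of the 8 non-immune types had 3.33 to 11.3 CPM of *C1qa*, far below that pool. A level near that of the pool therefore does not tell where the *C3* UMIs of microglia came from, which was not tested. Of the 7 UMIs, 6 lay in 1 group of 979 microglia (sub-cluster 2 below) and 1 in sub-cluster 0.

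**Figure D1:**
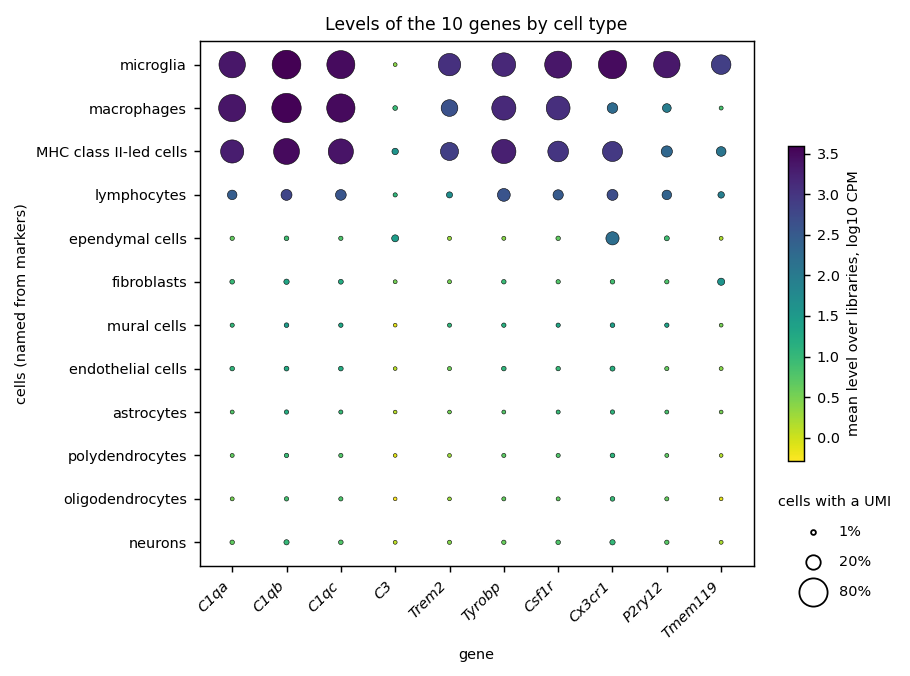
Level of each of the 10 genes (x axis) by cell type (y axis): colour gives the log10 of the mean CPM over libraries and the area of a dot the share of cells with a UMI. Microglia, macrophages and the MHC class II-led cells have the largest and darkest dots for the C1q genes, *Tyrobp*, *Trem2* and *Csf1r*, while *C3* is at 29.0 CPM in ependymal cells and 2.48 CPM in microglia.

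The share of microglia with at least 1 UMI differed between the genes. It was 70.1% for *C1qa*, 83.0% for *C1qb*, 78.9% for *C1qc* and 79.9% for *Cx3cr1*, and 37.9% for *Tmem119*, the lowest of the 9. In neurons, which should lack these transcripts and have a median of 1489 UMIs against 600 in microglia, the share was 0.777% for *C1qa* and 1.60% for *Cx3cr1*. Thinned to 500 UMIs per cell, which kept 2661 of the microglia and 7319 of the neurons, the shares were 64.4% and 0.164% for *C1qa* and 75.2% and 0.465% for *Cx3cr1*. A UMI of all 3 C1q genes was found in 52.8% of microglia, and the median microglial cell had a UMI of 6 of the 9 genes. All 9 were found in 323 cells, and none in 17.

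Macrophages, 306 cells that include those of the brain borders and vessels, separated the genes into those shared with microglia and those that were not. The C1q genes and *Tyrobp* were at like levels in both: *C1qa* was at 2373 ± 708 CPM in macrophages (SD, n = 16) and higher in microglia in 9 of 16 libraries, *C1qb* at 3752 ± 690 and higher in 10, *C1qc* at 3150 ± 597 and higher in 5, and *Tyrobp* at 1415 ± 425 and higher in 9. Their library ranges overlapped. *Csf1r* was 1.95 times as high in microglia as in macrophages (1185 ± 322 CPM) and *Trem2* 2.68 times (432 ± 196 CPM), both in 16 of 16 libraries, with ranges that overlapped for *Trem2* and not for *Csf1r*. *Cx3cr1* and *P2ry12* were 16.95 and 24.1 times as high, again in 16 of 16 libraries. *Tmem119* had 1 UMI in all macrophages, in 1 library, against 2265 in microglia. These levels come from clusters of the same cells and are descriptions without a test.

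The proportions of the C1q chains were close in both cell types. The ratio of *C1qb* to *C1qa* UMIs was 1.74 ± 0.137 in microglia (SD, n = 16, 1.503 to 2.041) and 1.69 ± 0.403 in the 15 libraries whose macrophages gave a ratio. For *C1qc* to *C1qa* it was 1.33 ± 0.142 in microglia and 1.44 ± 0.448 in macrophages. The spread of the macrophage ratios was wider, over 609 *C1qa* UMIs against 6753.

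A further 372 immune cells formed a mixed cluster, called MHC class II-led here. Its leading genes were the neutrophil genes *S100a8* and *S100a9*, followed by the MHC class II genes *H2-Eb1*, *H2-Aa* and *H2-Ab1*. In all, 8 neutrophil markers were raised in it. The 372 cells were at 1906 ± 780 CPM of *C1qa* (SD, n = 15), 1789 ± 575 CPM of *Tyrobp* and 901 ± 328 CPM of *Cx3cr1*. For *Cx3cr1* this lay between its levels in microglia and macrophages. *P2ry12* (204 CPM) and *Tmem119* (122 CPM) were far below microglia there (2198 and 745 CPM) but also above macrophages (91.2 and 6.87 CPM). In this cluster 299 cells had more UMIs of MHC class II genes than of neutrophil genes and 14 had more of neutrophil genes, and 87 cells lay within 1 UMI of that line. The 14 cells had 21 UMIs of *Tyrobp*, an adaptor of neutrophils too, and none of the other 9 genes. Lymphocytes, 200 cells with 13 called doublets, were compared in the 11 libraries with at least 10 such cells. The genes other than *C3* were there at 4.28% (*Trem2*) to 26.1% (*Tyrobp*) of the microglial level. *C3* was at 119 CPM in the lymphocytes of wild-type oil replicate 1 and at 0 in the rest. That value lies at the floor of counting: *C1qa*, *C1qb*, *P2ry12* and *Tyrobp* were at the same level there, and none of the 10 genes was lower without being at 0. A further 282 cells were left unnamed, of which 57 were called doublets, and they held 438 of the 8722 *C1qa* UMIs.

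In the 8 other cell types the genes other than *C3* were at 0.0947% to 1.08% of the microglial level, with 2 exceptions. *Tmem119* was at 38.9 ± 33.0 CPM in fibroblasts (SD, n = 16), from 51 UMIs and 5.21% of its microglial level, against 0.706 to 3.35 CPM in the other 7 types. *Cx3cr1* was at 160 ± 87.6 CPM in ependymal cells, the ciliated cells and tanycytes that line the third ventricle, also 5.21% of its microglial level, against 26.6 CPM in mural cells, the next highest. Median depth was 769 UMIs in fibroblasts and 1111.5 in ependymal cells.

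*Cx3cr1* in ependymal cells did not come with the other microglial genes. There were 36.3 *Cx3cr1* UMIs for each *C1qa* UMI there (762 against 21, 95% interval 23.6 to 59.0, counting error only), against 1.37 in microglia (1.33 to 1.42). A *Cx3cr1* UMI was found in 16.5% of ependymal cells and 1.60% of neurons, and after thinning to 500 UMIs in 6.89% and 0.465%. The ependymal cells with a *Cx3cr1* UMI had a median of 1912 UMIs against 1011 in the 2668 without, and 4 of them were called doublets. Of these cells, 1.52% had a *C1qb* UMI and 2.09% a *Csf1r* UMI, and 71.3% had a UMI of *Ccdc153*, a gene of motile cilia, against 39.2% of the others. In the 1923 ependymal cells with more UMIs of ciliated-cell markers *Cx3cr1* was at 194 CPM, and in the 892 with more of tanycyte markers at 51.4 CPM, while 379 cells had as many of each and 832 lay within 1 UMI of the line.

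By library *Cx3cr1* in ependymal cells was at 108, 159 and 2.90 CPM in wild-type mice given oil, and at 171, 102, 261, 187 and 213 CPM in those given tamoxifen. In *Esr1* cKO mice it was at 53.5, 145, 220 and 258 CPM under oil and at 161, 309, 13.4 and 204 CPM under tamoxifen. The values of 2.90 and 13.4 CPM are those of the 2 libraries that stood apart, and the other 14 ranged from 53.5 to 309 CPM (182 ± 69.0). In microglia the order was the opposite: these 2 libraries had the highest *Cx3cr1* levels, 3881 and 3587 CPM, against 2503 to 3347 in the other 14. This was not particular to *Cx3cr1*. The same 2 libraries were the highest in microglia for *P2ry12* (3007 and 2979 CPM) and *Tyrobp* (1953 and 2017 CPM). It did not hold for every gene, such as *Csf1r* (2832 and 3039 CPM, with *Esr1* cKO oil replicate 3 at 2958). The groups overlapped, and no comparison in ependymal cells passed the test.

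**Figure D2:**
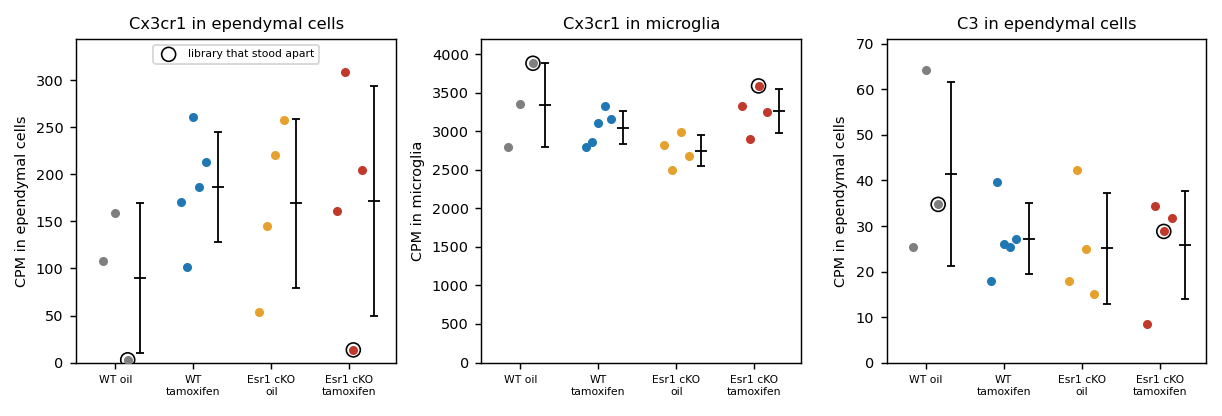
*Cx3cr1* in ependymal cells and in microglia, and *C3* in ependymal cells, in CPM by group; each point is 1 mouse, bars give the mean and SD, and circles mark the 2 libraries that stood apart. *Cx3cr1* in ependymal cells is at 2.90 and 13.4 CPM in the circled libraries and at 53.5 to 309 CPM in the others.

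The gene model of *Cx3cr1* differs between annotations. The GENCODE vM21 model of *Cx3cr1* spans 168264 bp (chr9:119901616-120069879), whereas the RefSeq model spans 19614 bp (chr9:120048683-120068296). Most of the difference comes from 1 transcript whose last exon, of 12 bp, lies 147651 bp from the exon before it. Another transcript sets the end at 120069879. The long model overlaps 5 other protein-coding genes, 3 of them on its own strand. Which annotation the reads were counted on is not given in the sources used here, and whether UMIs of other genes were counted as *Cx3cr1* was not tested. *P2ry12* overlaps *Med12l* and *Csf1r* overlaps *Hmgxb3*, each on the opposite strand, and the strand setting of the counting is not given either.

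*C3* was found mainly in ependymal cells, which held 150 of its 233 UMIs (64.4%). Its level there was 29.0 ± 12.9 CPM (SD, n = 16) and above 0 in all 16 libraries, against 1.28 CPM in neurons. The MHC class II-led cells had a mean of 38.4 CPM, but from 12 UMIs and with 9 of 15 libraries at 0, and their range overlapped that of ependymal cells. A *C3* UMI was found in 3.69% of ependymal cells and 0.241% of neurons, and after thinning to 500 UMIs in 1.27% and 0.0546%. As for *Cx3cr1*, the level was higher in the cells with more ciliated-cell markers (38.1 CPM, counting interval 31.9 to 45.2) than in those with more tanycyte markers (11.9 CPM, 6.81 to 19.4). The 5 genes most like *C3* across the 12 cell types were *Got1l1* (r = 0.92), *1700026L06Rik* (r = 0.91), *1700019G24Rik* (r = 0.91), *Cdhr4* (r = 0.91) and *Kcnn4* (r = 0.91). Among those most like *Cx3cr1* were *P2ry12* (r = 0.94), *Il1a* (r = 0.92) and *Itgb2* (r = 0.92), genes of microglia and other leukocytes. In wild-type mice *C3* in ependymal cells was at 25.4, 64.2 and 34.8 CPM under oil and at 18.0, 39.7, 26.1, 25.4 and 27.0 CPM under tamoxifen. In *Esr1* cKO mice it was at 17.8, 42.3, 24.9 and 15.2 CPM under oil and at 8.46, 34.3, 28.8 and 31.8 CPM under tamoxifen. All 4 ranges overlapped.

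Within microglia the levels of the genes differed between sub-clusters. Microglia fell into 4 large sub-clusters, again found without the 10 genes, and 1 small one of 49 cells. They differed in genes that tissue dissociation is known to induce, such as *Jun*, *Fos* and *Egr1*: the summed level of 18 such genes was 5337 CPM in sub-cluster 0 (1224 cells), 29270 in sub-cluster 3 (969 cells), 38030 in sub-cluster 2 (979 cells) and 39560 in sub-cluster 1 (992 cells). Median depth was 440, 807, 867 and 445.5 UMIs in that order. *P2ry12* was at 3219 CPM in sub-cluster 0 and 1673 in sub-cluster 2 (1.92 times, higher in 15 of 15 libraries), and it was also higher in sub-cluster 0 than in sub-clusters 1 (1.56 times) and 3 (1.37 times) in 15 of 15 libraries. *Tmem119* was 1.76 times as high in sub-cluster 0 as in sub-cluster 2 (15 of 15 libraries) and *Cx3cr1* 1.46 times (14 of 15). *C1qa* was 0.975 times as high (7 of 15 libraries), *C1qb* 0.887 times (2 of 15), *C1qc* 1.058 times (12 of 15) and *Tyrobp* 0.816 times (3 of 15), while *Trem2* (1.15 times, 12 of 15) and *Csf1r* (1.21 times, 14 of 15) lay between. Sub-clusters 0 and 1 had nearly the same median depth, and *C1qc* was 1.16 times as high in the first (13 of 15 libraries). These are levels in clusters of the same cells, given without a test, and the part of dissociation in them was not tested.

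**Figure D3:**
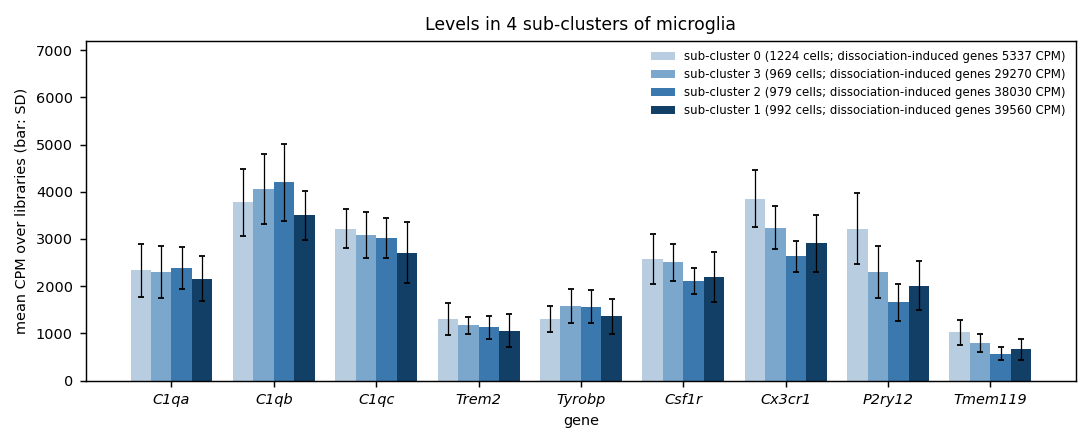
Levels of 9 of the genes (without *C3*) in the 4 large sub-clusters of microglia, in CPM, as means over libraries with their SD, with the sub-clusters in the order of their dissociation-induced genes. *P2ry12* is at 3219 CPM in sub-cluster 0 (15 libraries) against 1654 in sub-cluster 2 (16 libraries), whereas *C1qa* is at 2333 against 2383 CPM.

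Sub-cluster 0 held 23.0 ± 14.5% of microglia in wild-type mice given oil (SD, n = 3), 31.5 ± 5.30% with tamoxifen (n = 5), 24.5 ± 6.23% in *Esr1* cKO mice given oil (n = 4) and 30.1 ± 9.19% with tamoxifen (n = 4). These ranges overlapped. Sub-cluster 1 held 6.69 to 15.1% of microglia in wild-type mice given oil and 22.8 to 44.2% in those given tamoxifen, ranges that did not overlap. In *Esr1* cKO mice it held 17.0 to 36.8% under oil, also above the wild-type oil range, and 10.8 to 30.4% under tamoxifen. In the other sub-clusters the wild-type oil and tamoxifen ranges overlapped. Their means were 35.8% and 18.4% in sub-cluster 2 and 27.5% and 17.7% in sub-cluster 3. Such shares depend on each other, and none was tested. The summed level of the dissociation-induced genes in all microglia of a library ran from 23140 to 38260 CPM, highest in *Esr1* cKO tamoxifen replicate 3, and the groups overlapped.

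The study's design asks whether tamoxifen alters gene expression in these cells and whether that depends on *Esr1*. In microglia none of the 10 genes passed the test in any of the 5 comparisons. UMIs were summed over the microglia of each mouse and fitted with edgeR's quasi-likelihood test over 4545 genes, of which 0 (0%) passed an adjusted p of 0.05 in each comparison, 9 of the 10 genes among those tested. *C3* was under the filter on low counts. DESeq2 also called 0 of the 10 genes. The group ranges of all 10 genes overlapped in the 4 pairwise comparisons. Over all genes tested the ranges did not overlap, higher and lower, for 2.27% and 1.76% under tamoxifen in wild-type mice, 1.8% and 0.99% in *Esr1* cKO mice, 3.37% and 2.86% for *Esr1* cKO against wild-type under oil, and 0.462% and 0.726% under tamoxifen. The smallest adjusted p among them was 0.713, and the 95% intervals of their log2 fold changes ran from −0.86 at the lowest to 0.76 at the highest over the 4 pairwise comparisons.

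Between tamoxifen and oil in wild-type mice the levels overlapped for each gene. *C1qa* was at 2225, 2360 and 2932 CPM under oil and at 2116, 2339, 2067, 2045 and 2737 CPM under tamoxifen. Tamoxifen replicates 2 and 5 lay within the oil range and the others below it. *P2ry12* was at 1380, 1940 and 3007 CPM under oil and at 2374, 2333, 2522, 2689 and 2521 CPM under tamoxifen, all inside the oil range. The log2 fold changes of the 9 genes had a median of −0.04, from −0.17 (*C1qa*, SE 0.21) to 0.21 (*P2ry12*, SE 0.23), with 3 of 9 above 0. Over all genes tested the median was 0.04 and 54.3% were above 0. None of the 9 had an unadjusted p under 0.05, against 3.76% of all genes. Over 28 other settings 0 to 7 of 9 were above 0, with medians from −0.18 without oil replicate 1 to 0.14 without oil replicate 3, and leaving out 1 library changed the direction.

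**Figure D4:**
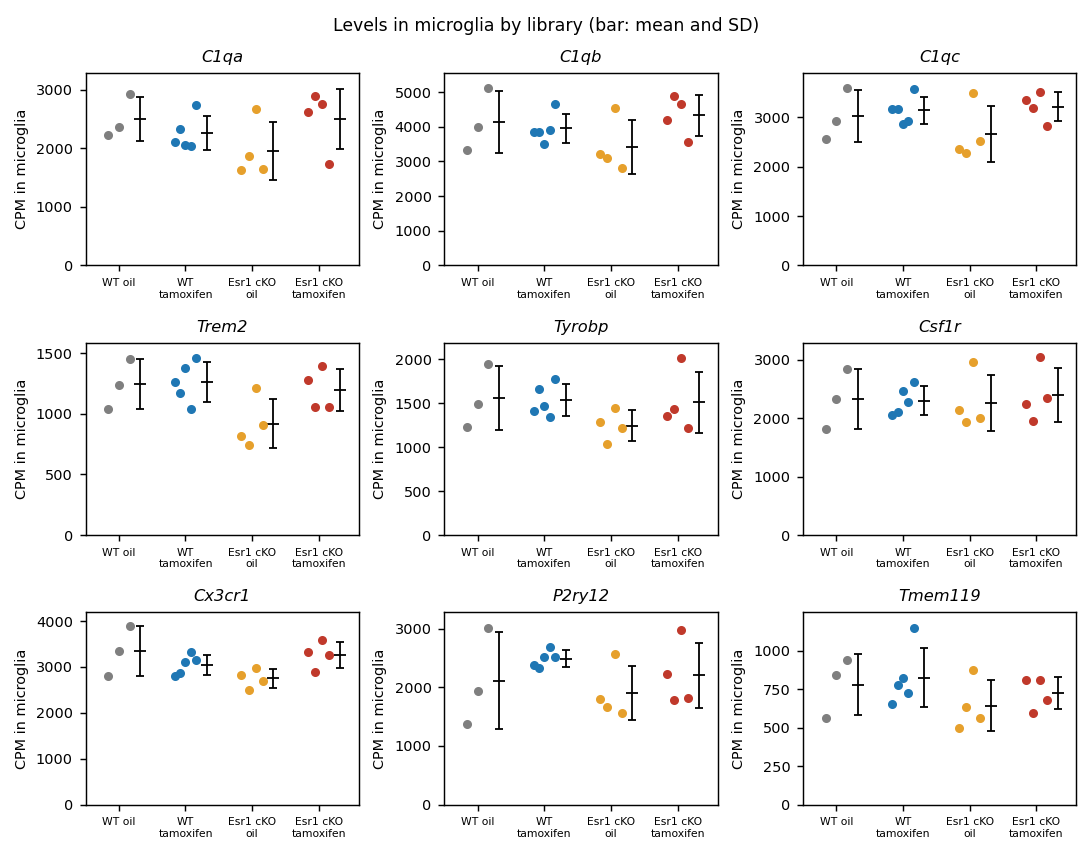
Levels of 9 of the genes (without *C3*) in the microglia of each library, in CPM, by group; each point is 1 mouse and the bars give the mean and SD of a group. The groups overlap for all 9, and *Trem2* is at 745 to 1211 CPM in *Esr1* cKO mice given oil and at 1044 to 1453 CPM in wild-type mice given oil.

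In *Esr1* cKO mice *C1qa* in microglia was at 1640, 1880, 2677 and 1644 CPM under oil and at 2619, 2893, 2759 and 1743 CPM under tamoxifen. Oil replicates 2 and 3 lay inside the tamoxifen range, and tamoxifen replicates 1 and 4 inside the oil range. *Trem2* was at 814, 745, 1211 and 909 CPM under oil and at 1281, 1054, 1398 and 1055 CPM under tamoxifen, with oil replicate 3 inside the tamoxifen range. All 9 log2 fold changes were above 0, with a median of 0.25, from 0.06 (*Csf1r*, SE 0.19) to 0.36 (*Trem2*, SE 0.19). Of all genes 47.9% were above 0, with a median of −0.02. None of the 9 had an unadjusted p under 0.05, against 4.16% of all genes. Without tamoxifen replicate 3, a library that stood apart, 7 of 9 were above 0 with a median of 0.16. The study's methods describe 4 mice processed per day over 4 days, and each successive set of 4 library numbers holds 1 oil and 1 tamoxifen library of *Esr1* cKO mice, although the labels name no day. Within each of the 4 sets the tamoxifen level was the higher one for 8 of the 9 genes, and in 2 of 4 for *Tmem119*. The share of all genes with this pattern was not computed, so nothing is read from the count. With the sets as a block all 9 log2 fold changes were above 0, with a median of 0.24, and the smallest adjusted p was 0.898 (edgeR).

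For *Esr1* cKO against wild-type mice given oil the values lay on the other side of 0. *Trem2* was at 1044, 1241 and 1453 CPM in wild-type and at 814, 745, 1211 and 909 CPM in *Esr1* cKO microglia, which came to −0.43 on the log2 scale (SE 0.20, adjusted p = 0.713, edgeR). *Esr1* cKO oil replicate 3 was the 1 value inside the wild-type range. All 9 genes lay below 0, with a median of −0.27, from −0.43 (*Trem2*) to −0.04 (*Csf1r*, SE 0.20). Of all genes 52% were above 0, with a median of 0.02, and 6.91% had an unadjusted p under 0.05, as *Trem2* did alone of the 9. Without wild-type oil replicate 3, the other library that stood apart, 7 of 9 were below 0 with a median of −0.11. With successive sets of 4 libraries as a block all 9 were below 0, with a median of −0.27 and a smallest adjusted p of 0.734 (edgeR). Both comparisons use the same 4 libraries of *Esr1* cKO mice given oil, so their opposite signs are not independent.

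Under tamoxifen the microglia of *Esr1* cKO and wild-type mice lay on both sides of 0. The 9 log2 fold changes had a median of 0.04, from −0.19 (*Tmem119*, SE 0.21) to 0.15 (*C1qa*, SE 0.19), and 5 of 9 were above 0, against 46.1% of all genes and a median of −0.03. None had an unadjusted p under 0.05, against 2.86% of all genes. In the 28 other settings 3 to 7 of 9 were above 0, with medians from −0.09 to 0.11. The interaction, the difference between the tamoxifen effects in *Esr1* cKO and in wild-type mice, was above 0 for 8 of 9 genes, with a median of 0.30, against 46.9% of all genes and a median of −0.04. The highest was *C1qa*, at 0.51 (SE 0.29, 95% interval −0.09 to 1.105, adjusted p = 0.843, edgeR), and *P2ry12* was at −0.02 (SE 0.32). Without both libraries that stood apart 5 of 9 interactions were above 0, with a median of 0.02. None had an unadjusted p under 0.05, against 5.57% of all genes. All 4 pairwise comparisons share a group with others.

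**Figure D5:**
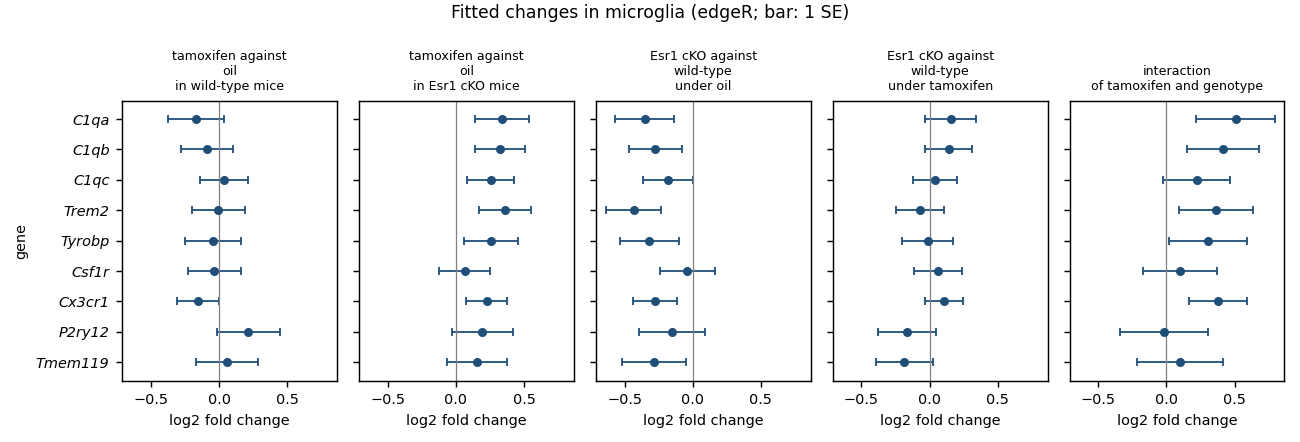
Log2 fold changes of the 9 tested genes (rows) in microglia for the 5 comparisons (panels), with bars of 1 SE from the edgeR fit and a line at 0. All 9 points lie above 0 for tamoxifen against oil in *Esr1* cKO mice and below 0 for *Esr1* cKO against wild-type under oil, where *Trem2* is at −0.43 (SE 0.20).

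None of the other genes of the same pathways passed either. Of 12 other microglial identity genes, 12 were tested in microglia and 0 passed in any comparison. The same held for 8 of 22 other complement genes and 4 of 6 genes for ligands of microglial receptors. It also held for 13 of 13 genes of *Trem2* and *Csf1r* signalling and of the microglial lineage. So it did for 6 of 14 genes of disease-associated microglia and 17 of 18 dissociation-induced genes. Under *Esr1* cKO against wild-type with oil the median log2 fold change was −0.16 for the identity genes, of which the most abundant were the lysosomal protease *Ctss* (−0.23, SE 0.18), *Laptm5* (−0.16, SE 0.17) and *Siglech* (0.11, SE 0.18). It was −0.34 for the disease-associated genes, all 6 below 0, against 52% of all genes above 0 and a median of 0.02. Among the 6 were *Ctsd* (−0.33, SE 0.21), *B2m*, the light chain of MHC class I (−0.51, SE 0.23), and *Apoe*, a lipid carrier and TREM2 ligand (−0.58, SE 0.30). For the complement genes the median was −0.12, with the complement receptor subunit *Itgam* at −0.09 (SE 0.19) and the C3a receptor *C3ar1* at −0.16 (SE 0.24). The signalling and lineage genes had a median of 0.17, opposite in sign, with *Mef2c* at 0.44 (SE 0.25) and *Inpp5d* at 0.56 (SE 0.34). *Tgfb1*, the cytokine that maintains the microglial state, was at 0.86 (SE 0.35, adjusted p = 0.69, edgeR), and *Csf1* at 0.10 (SE 0.34). The dissociation-induced genes had a median of 0.02, with *Jun* at 0.09 (SE 0.18), *Egr1* at 0.20 (SE 0.21) and *Fos* at 0.06 (SE 0.19). Of the 17 tested, 9 were above 0 there, but the other comparisons were less even. The tamoxifen effect was above 0 for 3 of the 17 in wild-type mice (median −0.23) and for 4 in *Esr1* cKO mice (median −0.09). Among mice given tamoxifen, 15 of the 17 were higher in *Esr1* cKO than in wild-type microglia (median 0.16). The interaction was above 0 for 12 (median 0.07). For tamoxifen against oil 2 of the 6 disease-associated genes were above 0 in wild-type mice, against 54.3% of all genes. In *Esr1* cKO mice 6 were, against 47.9%. For *Esr1* cKO against wild-type under tamoxifen 4 were, against 46.1%, and for the interaction 5, against 46.9%. All values of these lists include wild-type oil replicate 3, and none is given without it.

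No difference between groups in the share of microglia among kept cells passed an exact permutation test. It was 5.96%, 7.34% and 8.46% in wild-type mice given oil and 6.98%, 6.99%, 7.63%, 7.46% and 6.84% in those given tamoxifen. In *Esr1* cKO mice it was 9.13%, 8.28%, 5.16% and 8.39% under oil and 8.42%, 11.3%, 6.95% and 7.95% under tamoxifen. The 5 wild-type tamoxifen values lay close together, and the highest value was that of *Esr1* cKO tamoxifen replicate 2. Tamoxifen minus oil was −0.0718 percentage points in wild-type mice (two-sided exact permutation p = 0.964, smallest possible 0.0357) and 0.927 in *Esr1* cKO mice (p = 0.514, smallest possible 0.0286, exact permutation test). *Esr1* cKO minus wild-type was 0.487 under oil (p = 0.686, smallest possible 0.0571, exact permutation test, which cannot reach 0.05) and 1.49 under tamoxifen (p = 0.0952, smallest possible 0.0159, adjusted p over the 4 comparisons 0.381, exact permutation test). Without the pair of libraries that stood apart the last difference was 2.06 with groups that did not overlap (p = 0.0357, the smallest possible, adjusted p = 0.143, exact permutation test). Without *Esr1* cKO tamoxifen replicate 2 it was 0.596 (p = 0.214, exact permutation test), and tamoxifen minus oil in *Esr1* cKO mice was 0.0369. Dissociation and the density gradient set which cells reach a droplet, so these are shares of captured cells.

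In macrophages 6 of the 10 genes passed the filter on low counts and 0 of 355 genes (0%) passed the test in any comparison. *Csf1r* in macrophages was at 1684, 1299 and 1430 CPM in wild-type and at 777, 1284, 1231 and 567 CPM in *Esr1* cKO mice given oil, ranges that did not overlap, as for 3.66% of the genes tested (lower). The log2 fold change was −0.59 (SE 0.30, adjusted p = 0.652, edgeR). Its interaction was 0.80 (SE 0.40, adjusted p = 0.69, edgeR). *C1qb* was at 0.03 (SE 0.25) and *Tyrobp* at −0.01 (SE 0.34) under oil. Macrophages gave 10 to 33 cells per library, and SEs reached 0.77 (*Trem2*, interaction).

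In the MHC class II-led cells, where 7 of the genes were tested, *Trem2* was at a log2 fold change of 1.17 for tamoxifen against oil in *Esr1* cKO mice (SE 0.44, adjusted p = 0.362, edgeR). Over that cluster and 5 further cell types, 17 tests of the genes were made in each comparison and 0 passed. Over all genes 0% passed in these types, other than 0.538% in lymphocytes under oil and 0.00804% in neurons under tamoxifen, both for *Esr1* cKO against wild-type. Of the 17, 3 had an unadjusted p under 0.05 for the tamoxifen effect in wild-type mice, against 3.16% of all gene tests in these types, and 2 for that in *Esr1* cKO mice, against 3.28%. For *Esr1* cKO against wild-type there were 3 under oil, against 4.6%, and 2 under tamoxifen, against 3.1%, and for the interaction there were 3, against 4.81%. Besides *Trem2* and *Tyrobp* in the MHC class II-led cells, these were *C1qb* in astrocytes, endothelial cells and lymphocytes, *Tyrobp* in endothelial cells and *Csf1r* in neurons, where the genes had few UMIs (107 of *C1qb* in all 13575 astrocytes). With 17 tests that share libraries and genes, nothing is read from these counts.

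Summed over all kept cells of a mouse, the genes other than *C3* reflect both the number of microglia and the RNA per cell, which cannot be told apart in such sums. Most UMIs of *C3* came from ependymal cells, as given above. In these sums all 10 genes were tested, and 0 of the 16626 genes (0%) passed in any comparison. Tamoxifen against oil in *Esr1* cKO mice gave the most genes with an unadjusted p under 0.05, 5 of 10 (*C1qa*, *C1qb*, *C1qc*, *C3* and *Trem2*), against 3.25% of all genes, and the adjusted p of each was 0.9999 (edgeR). *Trem2* was at 49.7, 55.8, 52.7 and 53.5 CPM under oil and at 75.2, 108, 63.0 and 80.1 CPM under tamoxifen. The groups did not overlap, as for 1.03% of genes (1.05% were lower without overlap), and the log2 fold change was 0.59 (SE 0.19, adjusted p = 0.9999, edgeR). Tamoxifen replicate 2, with 108 CPM of *Trem2* and 301 CPM of *C1qa*, was also the library with the largest share of microglia, 11.3%. All 10 log2 fold changes were above 0, with a median of 0.46, against 48.8% of all genes and a median of −0.01. They stayed above 0 in each of 28 other settings, with medians of 0.21 to 0.56.

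*C3* differed more than the other 9 genes in these sums, other than between *Esr1* cKO and wild-type mice given tamoxifen (0.26, SE 0.34, against 0.37, SE 0.23, for *C1qa*). It was at 4.66, 6.11 and 6.595 CPM in wild-type mice given oil, at 3.88, 4.17, 3.67, 4.65 and 2.99 CPM in those given tamoxifen, at 0.995, 2.94, 3.10 and 1.82 CPM in *Esr1* cKO mice given oil and at 2.17, 7.33, 3.49 and 5.59 CPM in those given tamoxifen. The *Esr1* cKO oil values all lay below the wild-type oil values, as for 3.89% of genes (1.92% were higher without overlap), and the log2 fold change was −1.33 (SE 0.40, adjusted p = 0.832, edgeR). The wild-type tamoxifen values also lay below the oil values, by less than 0.01 CPM at the nearest, as for 1.49% of genes (0.926% were higher without overlap). These values rest on 3 to 25 UMIs per library. The interaction was 1.58 (SE 0.52, adjusted p = 0.958, edgeR). Over 28 other settings the log2 fold change of *Esr1* cKO against wild-type under oil stayed between −1.53 and −1.13. The interaction ran from 0.61 to 1.82 over 27 settings, and tamoxifen against oil in *Esr1* cKO mice from 0.18 to 1.22 over 28, both lowest with mitochondrial UMIs under 5%. In ependymal cells alone the log2 fold change of *C3* for *Esr1* cKO against wild-type under oil was −0.76 (SE 0.45, adjusted p = 0.9999, edgeR). Ependymal cells made up 6.93%, 4.67% and 10.95% of kept cells in wild-type mice given oil and 2.35%, 3.63%, 6.51% and 3.87% in *Esr1* cKO mice given oil, and their part in the difference was not tested. All 10 genes lay below 0 for this comparison, with a median of −0.30, against 53.7% of all genes above 0 and a median of 0.03. *C3* was the 1 gene with an unadjusted p under 0.05, against 5.8% of all genes. Without wild-type oil replicate 3 the values of *C1qb* and *C1qc* were on the other side of 0, at 8.62e-05 and 0.0083 (log2).

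For the tamoxifen effect in wild-type mice 3 of 10 genes were above 0 (median −0.04), against 54.4% of all genes, and none had an unadjusted p under 0.05, against 1.87%. Over 28 other settings this was 0 to 9 of 10, with medians from −0.23 without oil replicate 1 to 0.22 without oil replicate 3. For *Esr1* cKO against wild-type under tamoxifen 8 of 10 were above 0 (median 0.19), against 49.5% of all genes, and none had an unadjusted p under 0.05, against 2.71%. All 10 ranges overlapped in that comparison, while 0.385% of all genes were higher and 0.758% lower without overlap. All 10 interactions were above 0 (median 0.50), against 47.5% of all genes, and *C1qa* and *C3* had an unadjusted p under 0.05, against 4.26%.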

How the data were processed

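Drop-seq libraries of 16 mice were analysed. The authors deposited whole-number UMI counts per gene and cell barcode. Their processing notes name STAR 2.6, Seurat 3.6.1 and mm10, while the counting program, strand setting and annotation are not given in the sources used here. The paper gives 3.6.1 as its version of R and names a different version of Seurat. No column was left out (0).

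Barcodes with over 200 genes, under 4000 genes and less than 15% mitochondrial UMIs were kept as cells and clustered with Seurat 5.3.0 (2000 variable genes per group without the 10 genes, 30 anchor dimensions, 20 components, resolution 0.05, and 0.5 within immune cells). A cluster was named from at least 3 markers. The MHC class II-led cluster had 8 raised neutrophil markers, more than that minimum, and was renamed after its genes were seen. Scrublet (scanpy 1.11.5, rate 0.05) marked doublets, which were kept.

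UMI counts were summed per mouse and cell type (at least 10 cells) and tested with edgeR 4.0.16 (quasi-likelihood, TMM, filterByExpr, 4 group means, Benjamini-Hochberg 0.05 over all genes), with DESeq2 1.42.0 as an alternative. Scripts were tested on simulated data. Shares of cells were tested by exact permutation, and intervals are exact 95% Clopper-Pearson or Poisson intervals that cover counting error only. CPM is scaled to 1e+06 UMIs of the cells summed. The genes named beside the 10 are the 3 most abundant tested genes of each list, the 5 genes most like *C1qa*, *Cx3cr1* and *C3*, and genes that stood out after their values were seen. Some genes these rules name are not reported here. The 10 genes, the lists and the tests were chosen with earlier results of these data known. The alternatives first named another pair of libraries as standing apart (replicates 2 of wild-type oil and *Esr1* cKO tamoxifen), so leaving out the pair found here was added after seeing the data, as was removing shared barcodes. Replicate numbers follow the order of the samples and pair no mice. Successive sets of 4 library numbers were a block in 1 alternative, since 4 mice were processed per day, although the labels name no day. The last set holds no wild-type oil library. Each library is a separate mouse.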

Additional observations from a re-analysis of the deposited data

Results flagged for a closer look

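In 69 groups of 4 or 5 libraries examined for a single library far from the rest, 2 stood out, where chance alone gives about 5% of groups. *P2ry12* in macrophages was at 60.55 CPM in *Esr1* cKO tamoxifen replicate 4 and at 0 in the other 3 libraries of the group. This lies at the floor of counting: *P2ry12* had 23 UMIs in all macrophages and was at 0 in 6 of 16 libraries. *C3* in the macrophages of that replicate was at the same 60.55 CPM. The share of cells left unnamed was 0.768% of kept cells in *Esr1* cKO oil replicate 4 and at most 0.451% in the other 3.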

How the results depend on the processing

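No paired analysis was possible because the labels give no replicate numbers, but successive sets of 4 library numbers were fitted as a block, and 0 of the genes passed. None of the 10 genes passed the test under any alternative. Of 135 single fold changes 68 lay on both sides of 0 over the alternatives (20 of 45 in microglia, 23 of 30 in macrophages), most of them within their SE. Among those larger than their SE, those that moved with mitochondrial UMIs under 5% were *Tyrobp* in microglia for *Esr1* cKO against wild-type under oil (0.0204) and for the interaction (−0.22), and *C1qa* in macrophages for *Esr1* cKO against wild-type under oil (0.0044). Without both libraries that stood apart, the *Tyrobp* interaction in microglia was −0.082, and for *Esr1* cKO against wild-type under oil in all kept cells *C1qb* was 0.0018 and *C1qc* 0.0094. With 1 library left out *C1qb* ran from −0.5135 (without wild-type oil replicate 1) to 8.62e-05 and *C1qc* from −0.4282 to 0.0083, the highest values of both without wild-type oil replicate 3. With more than 500 genes per cell, *Csf1r* in all kept cells was −0.021 for *Esr1* cKO against wild-type under tamoxifen. The cause of these moves was not tested.

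The difference in the share of microglia between tamoxifen and oil in wild-type mice was 0.532 percentage points without both libraries that stood apart and 0.0347 with shared barcodes removed, and −0.719 to 0.532 with 1 library left out, above 0 without wild-type oil replicate 3 (0.532) or wild-type tamoxifen replicate 5 (0.0132). For *Esr1* cKO against wild-type under oil it was −0.772 with more than 500 genes per cell, −1.37 with mitochondrial UMIs under 5%, and −0.160 to 1.35 with 1 library left out, the lowest without wild-type oil replicate 1. With 1 library left out it was 0.0369 to 1.497 for tamoxifen against oil in *Esr1* cKO mice and 0.596 to 2.06 for *Esr1* cKO against wild-type under tamoxifen. Thinning to 500 UMIs moved 74 shares of cells with a UMI by more than their interval and 46 by less.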
